A study of Lemna aequinoctialis with 6 samples.

Results

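In duckweed (Lemna aequinoctialis, a small floating aquatic plant), 127 transcripts of 62 Trinity genes with descriptions of ubiquitin-conjugating enzymes, ubiquitin ligases, F-box proteins or BTB/POZ proteins were examined. They came from the authors' deposited list of 5093 transcripts that differed between IPA-treated and control plants, while the full table held 81787 transcripts of 28620 Trinity genes (groups of transcripts that the assembler Trinity places together). Members were chosen by the wording of the description: E3 ubiquitin, U-box, RING-H2, RING finger, F-box, BTB/POZ, ubiquitin-conjugating or cullin, with proteins named for EIN3, ethylene, auxin, coronatine, gibberellin or phytochrome left out. Both groups were plants of this species, 3 samples without treatment (control) and 3 treated with indole-3-propionic acid (IPA), an indole acid related in structure to the natural auxin. The labels give no dose, duration or age, nor do they say that samples came from different cultures, so the variation on which every test rests may be technical only. The labels call the material plant cells, and the RNA was extracted from powdered plant. Fewer cells of a type and less RNA per cell cannot be told apart in such bulk samples.

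Ubiquitin is a small protein that is attached to other proteins, often to mark them for breakdown by the proteasome. An activating enzyme (E1) passes it to a conjugating enzyme (E2), and a ligase (E3) brings the E2 to the protein to be marked. RING and U-box ligases do this as single proteins, HECT ligases carry the ubiquitin themselves, and cullin-based ligases use exchangeable adaptors, F-box proteins in one kind and BTB proteins in another, to choose the target. In plants many hormone, light and defence pathways work through such ligases, and the auxin receptors are themselves F-box proteins.

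The libraries held between 30149649 and 45233584 reads, each read counting for 0.0205 to 0.0318 on the normalised scale. A floor of 3 reads, used below for transcripts near absence, came to between 0.0614 and 0.0954. The 20 transcripts with the most reads took 29.8, 35.2 and 15.9% of each control library, by sample number, but 8.21, 10.1 and 7.84% of each treated library. That share moved with the treatment, and its part in the results that follow was not tested.

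More members were lower than higher in IPA: 89 were lower and 38 higher (29.9% higher, against 50.8% of the whole list). By Trinity gene the split was 35 lower and 27 higher, and no gene held members in both directions. The authors' list chose the members on these same samples, by a false discovery rate (FDR, a p-value adjusted for the number of tests) of at most 0.05 and a change of at least 2-fold, so every difference between the groups given here describes the selected transcripts and tests nothing. In the authors' deposited table the list held 6.23% of all transcripts, 3.16% as higher and 3.07% as lower. In a limma fit (a linear model for each transcript that shares its estimate of the spread across transcripts) of all 78722 transcripts kept, on the log2(value + 0.5) scale, 80 members passed an FDR of 0.05, 27 higher and 53 lower, where 8.37% of all transcripts passed, 4.49% higher and 3.87% lower. Of the count tests, the quasi-likelihood test of edgeR gave 78 members against 8.12% of all transcripts, DESeq2 114 against 13.2% and edgeR's likelihood-ratio test all 127 against 14.2%. The groups did not overlap in 123 members, 37 higher and 86 lower, where 32.9% of all transcripts had groups that did not overlap, 16.6% with IPA above and 16.3% with IPA below. No inference about the members is drawn from these counts. The median log2 difference, IPA minus control, was -0.89 over the members, with an absolute median of 1.04, and 0.02 over all transcripts tested, with an absolute median of 0.29. Single libraries moved the count of members passing limma, and the share of all transcripts passing moved with it. Leaving out control 1, control 2 or control 3 gave 68, 18 or 102 members, against 9.19, 1.93 and 13.2% of all transcripts. Leaving out IPA 1, IPA 2 or IPA 3 gave 41, 17 or 26 members, against 4.53, 1.64 and 3.18%. Scaling by library totals moved the median of all transcripts to 0.25, and then 46.3% of the members passing limma were higher against 33.8% here.

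The direction differed from class to class. Of 8 E2 transcripts 7 were lower, and of 68 transcripts of RING and other E3 ligases 56 were lower. Of 32 F-box transcripts 20 were lower and 12 higher. In contrast, 8 of 12 U-box and 5 of 7 BTB/POZ transcripts were higher. Counted by gene, lower against higher were 4 and 1 for E2 enzymes, 19 and 7 for RING and other E3 ligases, 8 and 9 for F-box proteins, 3 and 6 for U-box ligases and 1 and 4 for BTB/POZ proteins. No description named a cullin. The median log2 differences were -0.85, -0.98, -0.92, 0.91 and 1.04 for E2 enzymes, RING and other E3 ligases, F-box proteins, U-box ligases and BTB/POZ proteins. Taken over the sums of all transcripts of each gene, the medians were -0.58, -0.74, 0.42, 1.04 and 1.05 in the same order and -0.56 over all 62 genes, so that the sign for F-box proteins turned when the transcripts of 1 gene were not counted separately. The 2 RGLG genes with the most members gave 30 of the 68 RING and other E3 transcripts, and without them 59 of the remaining 97 members were lower.

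**Figure D1:**
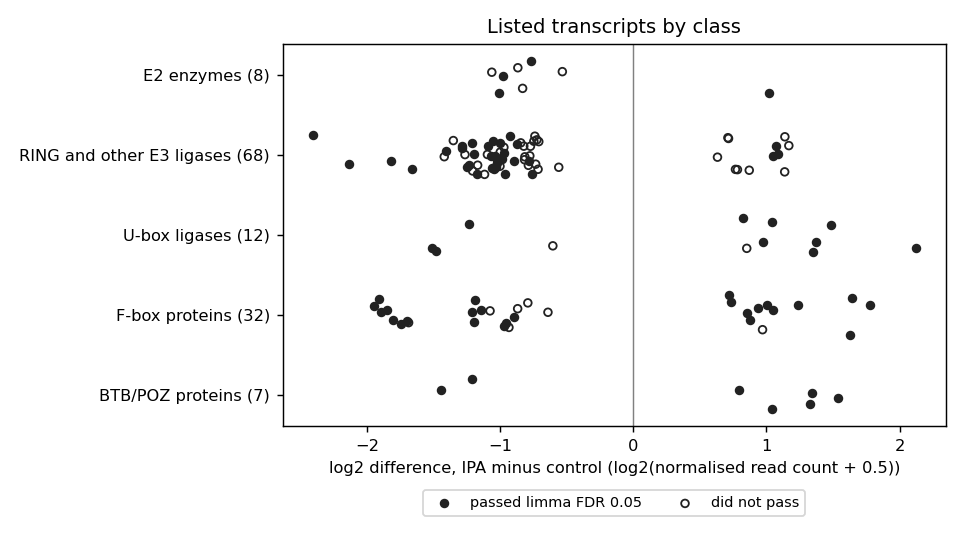
Each point is 1 listed transcript, placed by its log2 difference (IPA minus control, on the log2(normalised read count + 0.5) scale) and by class, with the number of transcripts of the class in brackets; filled points passed limma at an FDR of 0.05. RING and other E3 ligases lie mostly on the lower side (56 of 68) and U-box and BTB/POZ transcripts mostly on the higher side (8 of 12 and 5 of 7). The vertical scatter within a class carries no value.

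Levels are given below as normalised read counts per library, in the order 1, 2 and 3 within a group. They are not corrected for transcript length, so levels are compared between libraries and not between genes. Log2 differences carry the SE of the limma fit, with 3 samples per group. Class counts with a sample left out are to be read beside the shares of all transcripts passing in the same runs, given above. Transcripts of 1 gene can share reads, and so can near-identical genes of these large families, so that which copy changed is uncertain. Descriptions are those that the authors' list pairs with UniProt entries of other species, some of them animals or yeast, and roles given here are known from the species named. Members that are not among the 30 in the plot of named members were named after their values were seen.

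Among the E2 enzymes, Probable ubiquitin-conjugating enzyme E2 16 was the sole member of its class that was higher. It stood at 14.8, 9.29 and 7.27 in control and 18.1, 21.6 and 23.0 in IPA (log2 difference 1.02 ± 0.25). Control 1 lay nearest to the treated samples, and the groups did not overlap. Probable ubiquitin-conjugating enzyme E2 23 stood at 3.95, 6.27 and 6.56 in control and 3.16, 1.84 and 2.74 in IPA (log2 difference -0.98 ± 0.25). All treated values were below all control values, the closest pair being control 1 and IPA 1. That transcript held 6.97% of its gene's reads in control and 4.68% in IPA. The sum over the E2 23 gene differed by -0.58 ± 0.18 and did not pass limma. One gene, TRINITY_DN2823_c0_g1, gave 4 of the 8 transcripts, described as Ubiquitin-conjugating enzyme E2 4 or E2 6. Its transcript described as E2 6 stood at 12.4, 6.42 and 4.32 in control and 3.27, 2.85 and 3.24 in IPA (log2 difference -1.06 ± 0.31), with control 1 well above the other controls. That gene had 18 transcripts in the table, and the 4 listed ones held 23.7% of its reads in control and 18.6% in IPA. Putative ubiquitin-conjugating enzyme E2 38 was at 0.483, 0.445 and 0.457 in control and at 0.0575, 0.0409 and 0.0988 in IPA, where IPA 1 and IPA 2 lay under the floor of 3 reads. Of the 8 E2 transcripts 4 passed limma, and none did when control 2 or any 1 treated sample was left out. None of the sums over the 5 E2 genes passed limma.

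Among RING ligases, transcripts described as AIRP2 differed most. AIRP2 is a RING ligase that promotes abscisic acid responses in Arabidopsis. Its transcript TRINITY_DN739_c1_g1_i5 stood at 44.0, 28.1 and 20.2 in control and 6.09, 5.16 and 4.23 in IPA (log2 difference -2.41 ± 0.27), which was the most negative difference of any member on this scale. In the authors' deposited table, without this pseudocount, the log2 fold change of ubiquitin-conjugating enzyme E2 38 was more negative, at -2.77 against -2.58. The lowest control was more than 3 times the highest treated sample. All 4 transcripts of this gene were listed, with log2 differences of -2.41 to -1.66, and their sum went from 85.2, 53.3 and 42.1 to 14.1, 11.7 and 8.48. A second gene with the same description, TRINITY_DN5388_c0_g1, had 1 listed transcript of 2, at 4.59, 4.61 and 3.98 in control and 1.98, 1.60 and 1.31 in IPA (log2 difference -1.21 ± 0.20).

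The RGLG ligases, a small family of RING proteins that in Arabidopsis acts in auxin, drought and jasmonate responses, supplied 32 transcripts of 4 genes, of which 31 were lower. The gene TRINITY_DN1511_c1_g1 alone had 22 listed transcripts of 25, described as RGLG2, RGLG3 or RGLG5 although they belong to 1 Trinity gene. Its sum over all transcripts was 110.0, 63.4 and 33.1 in control and 23.0, 19.8 and 23.4 in IPA (log2 difference -1.46 ± 0.35). The controls spread over more than 3-fold, control 3 lay closest to the treated samples, and the 3 treated samples lay close together. The transcript described as RGLG3 with the most negative difference, TRINITY_DN1511_c1_g1_i25, showed the same order, at 11.9, 4.90 and 2.24 in control and 1.84, 1.60 and 1.46 in IPA (log2 difference -1.42 ± 0.46), and did not pass limma. Within this gene 9 of the 22 listed transcripts passed limma. A second RGLG gene, TRINITY_DN9776_c0_g1, had 8 listed transcripts of 12, all described as RGLG5. Its sum was 25.05, 9.22 and 5.10 in control and 2.99, 3.46 and 2.59 in IPA (log2 difference -1.67 ± 0.46), again with control 1 far above the other controls. The transcript TRINITY_DN9776_c0_g1_i19 was at 2.32, 0.954 and 0.732 in control and 0.172, 0.328 and 0.173 in IPA (log2 difference -1.25 ± 0.30). The exception, TRINITY_DN12811_c0_g1_i1, described as RGLG2, was near the floor, at 0.0905, 0.223 and 0.0457 in control and 0.460, 0.328 and 0.593 in IPA.

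**Figure D2:**
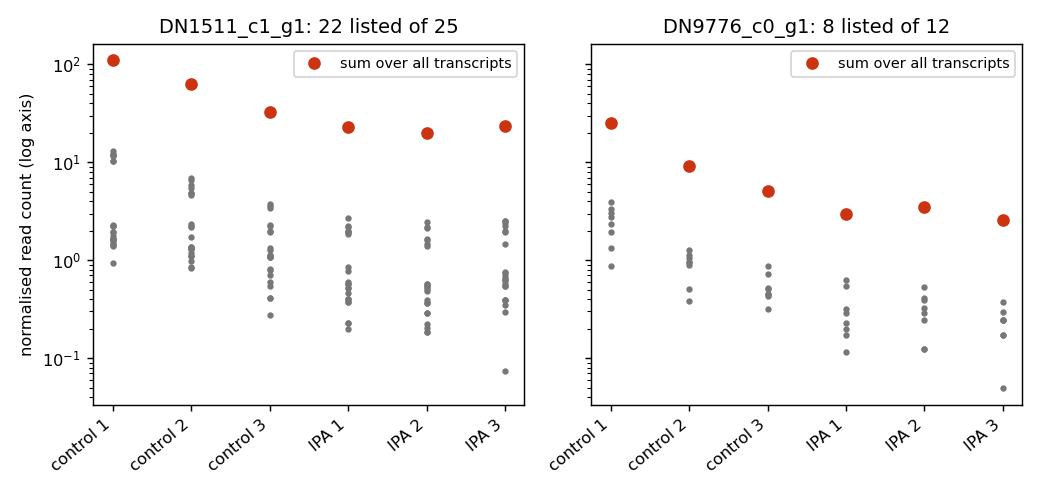
Normalised read counts per library (log axis) of the listed transcripts of the 2 RGLG genes with the most members, TRINITY_DN1511_c1_g1 (22 of 25 transcripts) and TRINITY_DN9776_c0_g1 (8 of 12), as small grey points, with the sum over all transcripts of the gene in red. The sums of both genes are highest in control 1 (110.0 and 25.05), lowest among controls in control 3 (33.1 and 5.10), and lower in every treated sample.

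RIN3, a RING ligase that in Arabidopsis takes part in the defence response started by the immune receptor RPM1, differed in a tighter way. Its transcript TRINITY_DN5056_c0_g1_i7 stood at 4.80, 5.03 and 5.01 in control and 1.67, 1.84 and 1.93 in IPA (log2 difference -1.24 ± 0.18). The controls differed little among themselves and every treated sample was below them. All 5 listed transcripts of this gene passed limma (log2 differences -1.24 to -1.02), while the sum over its 13 transcripts differed by -0.95 ± 0.16. Other lower E3 transcripts included UPL1, a HECT ligase, and APD4, each with groups that did not overlap. UPL1 was at 2.72, 3.98 and 3.64 in control and 1.55, 1.58 and 1.53 in IPA (log2 difference -0.93 ± 0.20). The APD4 transcript TRINITY_DN4604_c0_g1_i30 was at 35.2, 18.7 and 17.6 in control and 12.3, 11.1 and 8.97 in IPA (log2 difference -1.04 ± 0.26).

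In the RING class 7 genes were higher in IPA, among them 3 of the ATL type, membrane-bound RING-H2 ligases of plants. ATL48 in the gene TRINITY_DN3807_c0_g1 was at 15.1, 13.4 and 9.93 in control and 17.98, 24.2 and 55.7 in IPA (log2 difference 1.17 ± 0.37). IPA 3 stood far above the other treated samples, and the transcript did not pass limma. ATL74, in the transcript TRINITY_DN2157_c0_g1_i3, had the same shape, at 3.11, 2.64 and 2.13 in control and 3.13, 5.71 and 13.6 in IPA (log2 difference 1.14 ± 0.42), where IPA 1 hardly exceeded control 1. A second gene described as ATL48, TRINITY_DN30582_c0_g1, went the other way, at 26.6, 18.5 and 9.63 in control and 7.84, 7.45 and 6.03 in IPA (log2 difference -1.20 ± 0.31). Of the 7 ATL transcripts 4 were higher and 3 lower. RNF10, a RING protein name taken from animals, was at 12.8, 17.0 and 20.5 in control and 29.9, 32.6 and 42.3 in IPA (log2 difference 1.05 ± 0.22). XBAT34, a RING ligase with ankyrin repeats, had 5 listed transcripts of 30, all higher. Its transcript TRINITY_DN5773_c0_g1_i30 was at 1.48, 0.509 and 0.412 in control and 1.92, 2.09 and 2.30 in IPA (log2 difference 1.09 ± 0.29), and control 1 lay near the treated samples. Of the 5 transcripts only TRINITY_DN5773_c0_g1_i30 passed limma. The sum over the XBAT34 gene was 57.7, 26.6 and 23.9 in control and 44.1, 49.2 and 52.2 in IPA (log2 difference 0.54 ± 0.30). Control 1 exceeded every treated sample there, and the sum did not pass limma. In all, 34 of the 68 transcripts of this class passed limma, 3 higher and 31 lower, and the count fell to 8 when control 2 was left out and to 16, 6 and 11 for IPA 1, IPA 2 and IPA 3, but was 54 when control 3 was left out.

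U-box ligases, which use a RING-like fold without bound zinc, were higher in 6 of 9 genes. U-box domain-containing protein 12 in TRINITY_DN78034_c0_g1 had the largest positive log2 difference of any member (2.12 ± 0.53), at 1.93, 1.02 and 1.10 in control and 3.42, 5.67 and 19.6 in IPA. IPA 3 was more than 3 times IPA 2, and all treated values lay above all controls. In another gene with the same description, TRINITY_DN11003_c0_g1, both transcripts were higher. Its transcript TRINITY_DN11003_c0_g1_i1 was at 1.93, 4.10 and 3.45 in control and 6.52, 8.74 and 10.8 in IPA (log2 difference 1.35 ± 0.27). In Arabidopsis the protein of this name marks the flagellin receptor FLS2 for breakdown. U-box domain-containing protein 28 was at 22.1, 15.5 and 15.1 in control and 32.1, 44.9 and 83.8 in IPA in the transcript TRINITY_DN2890_c0_g1_i1 (log2 difference 1.49 ± 0.32), again highest in IPA 3. U-box domain-containing protein 33 was at 4.35, 4.48 and 6.06 in control and 8.59, 9.68 and 14.5 in IPA (log2 difference 1.04 ± 0.23).

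U-box domain-containing protein 30 went the other way. Its transcript TRINITY_DN2140_c0_g1_i5 was at 181, 223 and 116 in control and 64.8, 75.5 and 40.8 in IPA (log2 difference -1.51 ± 0.29). Control 3 was the lowest control and IPA 3 the lowest treated sample, and the groups did not overlap. The second listed transcript of the gene, TRINITY_DN2140_c0_g1_i2, differed by -1.48 ± 0.28. The 4 unlisted transcripts of the same gene had log2 differences of the opposite sign, 0.31 to 0.49, and none of them passed limma. The listed transcripts therefore held 92.3% of the gene's reads in control and 76.2% in IPA, and the sum over the gene still differed by -1.22 ± 0.26. Of the 12 U-box transcripts 10 passed limma, 7 higher and 3 lower, and leaving out control 2, IPA 2 or IPA 3 left 1, 2 or 4.

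F-box proteins went both ways, also among those described as F-box/kelch-repeat proteins, where 1 gene was lower and 3 were higher. All 7 transcripts of the F-box/kelch-repeat protein At1g15670 were lower. In Arabidopsis the protein of this name promotes the breakdown of phenylalanine ammonia-lyase, the first enzyme of phenylpropanoid synthesis, and of type-B response regulators of cytokinin signalling. Its transcript TRINITY_DN2127_c0_g1_i10 was at 19.98, 11.6 and 7.02 in control and 2.87, 2.64 and 2.57 in IPA (log2 difference -1.95 ± 0.31). The controls spread widely, with control 1 highest, and the treated samples lay close together. The 7 transcripts, which were all that the gene had, differed by -1.95 to -1.70, and their sum went from 149, 89.9 and 46.7 to 23.3, 25.5 and 17.3. SKIP30, named for its binding to the SKP1 adaptor, had all 4 transcripts listed and higher, TRINITY_DN5777_c0_g1_i9 being at 2.35, 1.91 and 2.06 in control and 5.57, 9.13 and 11.6 in IPA (log2 difference 1.78 ± 0.25).

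The F-box/LRR-repeat MAX2 homolog A was higher in every treated sample. MAX2 is the F-box protein of strigolactone and karrikin signalling. Its transcript was at 19.3, 24.97 and 22.5 in control and 43.8, 69.3 and 110.4 in IPA (log2 difference 1.63 ± 0.29). The controls lay close together and the treated samples spread over more than 2-fold. The sum over the MAX2 gene differed by 1.68 ± 0.29 and passed limma. Both other members described as F-box/LRR-repeat proteins were higher as well, F-box/LRR-repeat protein 4 by 0.88 ± 0.21 and F-box/LRR-repeat protein 25 by 0.97 ± 0.40. The latter had groups that overlapped and did not pass limma. These 2 transcripts held 4.66 and 18.4% of their genes' reads in control. Their gene sums differed by 0.45 ± 0.15 and 0.94 ± 0.43, and neither passed. AFR, a positive factor in far-red light signalling in Arabidopsis, was at 1.96, 3.91 and 3.84 in control and 5.29, 7.08 and 7.09 in IPA (log2 difference 0.94 ± 0.25). Probable F-box protein At4g22030 was at 6.10, 3.78 and 3.36 in control and 7.18, 10.2 and 11.4 in IPA (log2 difference 1.05 ± 0.25). The sum over its 3 transcripts overlapped between the groups, and the share of the listed one went from 28.8 to 46.9%.

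The PP2-B type, F-box proteins with a domain like that of a phloem lectin, was lower in all 6 transcripts of 3 genes. The transcript TRINITY_DN8004_c0_g1_i4, described as PP2-B7, was at 6.37, 4.42 and 2.77 in control and 1.90, 1.84 and 1.09 in IPA (log2 difference -1.21 ± 0.29). All 4 transcripts of that gene were listed, under the descriptions PP2-B3 and PP2-B7, with similar differences of -1.21 to -1.15. Tubby-like F-box protein 3 was at 46.2, 14.5 and 4.87 in control and 4.42, 4.44 and 4.13 in IPA (log2 difference -1.69 ± 0.66). Control 3 lay just above the treated samples while control 1 was more than 9 times control 3, and the transcript did not pass limma. Tubby-like F-box protein 1 was at 0.573, 1.37 and 0.984 in control and 2.27, 2.03 and 2.03 in IPA (log2 difference 0.86 ± 0.23). EID1-like F-box protein 2, a relative of a negative factor in phytochrome A signalling, had 4 listed transcripts of 9, of which 1 passed limma. Its transcript TRINITY_DN2973_c0_g1_i18 was at 6.07, 3.28 and 2.38 in control and 2.27, 1.41 and 1.43 in IPA (log2 difference -0.93 ± 0.30), with control 3 barely above IPA 1. In all, 25 of the 32 F-box transcripts passed limma, 11 higher and 14 lower, and leaving out control 2, IPA 1, IPA 2 or IPA 3 left 3, 11, 5 or 5.

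BTB/POZ proteins, some of which are adaptors of cullin ligases, were higher in 4 of 5 genes. NPR2 belongs to a family of salicylic acid sensing proteins of plant defence. Its transcript TRINITY_DN326_c1_g1_i10 was at 11.4, 14.0 and 12.6 in control and 29.2, 36.0 and 32.4 in IPA (log2 difference 1.32 ± 0.17). A second transcript of the gene, TRINITY_DN326_c1_g1_i22, was at 19.0, 23.8 and 22.8 in control and 41.4, 48.4 and 46.4 in IPA (log2 difference 1.04 ± 0.17). In both, the treated samples lay at about the same level and well above the controls. DOT3, which is needed for normal vein patterning in Arabidopsis, was at 3.50, 4.04 and 2.402 in control and 7.47, 10.3 and 9.56 in IPA (log2 difference 1.35 ± 0.22). All 3 unlisted transcripts of its gene also passed limma in the same direction. The BTB/POZ domain-containing protein At1g30440 was at 0.362, 0.573 and 0.412 in control and 1.81, 2.37 and 2.59 in IPA (log2 difference 1.54 ± 0.21). The gene described as At1g63850 was the sole lower one, its transcript TRINITY_DN8683_c0_g1_i4 being at 19.7, 23.9 and 26.6 in control and 9.54, 8.21 and 7.07 in IPA (log2 difference -1.44 ± 0.19). All 7 transcripts of the class passed limma, and 4 did without IPA 2.

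**Figure D3:**
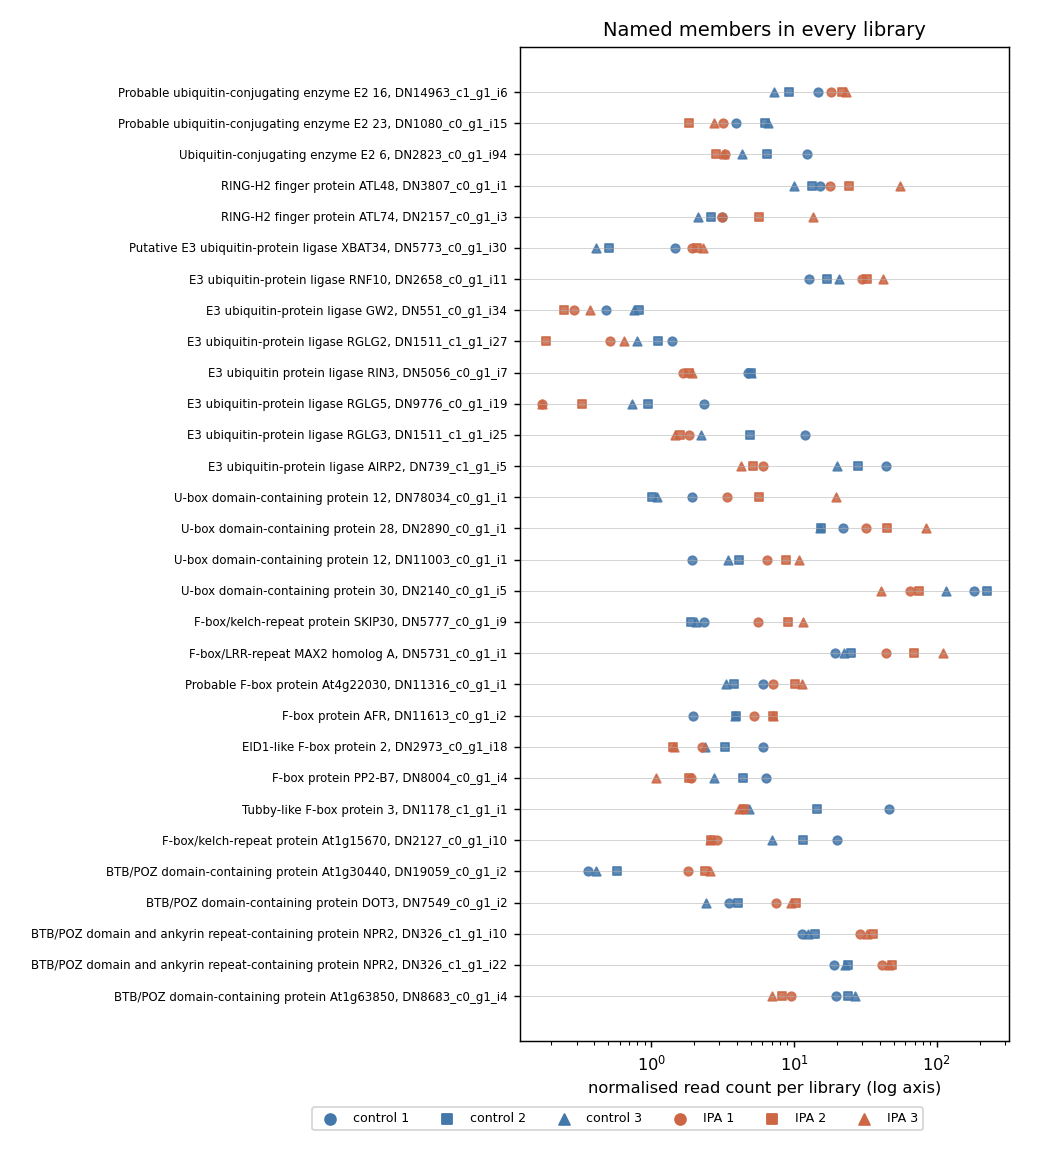
Normalised read count in every library (log axis) of the 30 members named by rule, control in blue and IPA in orange, with the marker shape giving the sample number. The groups do not overlap in any of the 30 (32.9% of all transcripts had such groups), which the naming rule itself required of most of them; the controls of AIRP2, At1g15670, RGLG3 and Tubby-like F-box protein 3 spread widely, while those of NPR2, RIN3 and SKIP30 lie close together.

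Sums over all transcripts of each gene can show whether the whole gene differed or only the listed transcript where some transcripts are unlisted, as in 36 genes. In 26 genes every transcript was listed, so their sums restate the selected transcripts. Of these 26 genes, 18 had a single transcript in the table, and 11 of those passed limma as gene sums. Of the 62 gene sums 34 passed limma, 15 higher and 19 lower, where 10.3% of all 27203 genes passed, 5.65% higher and 4.68% lower. With control 2, IPA 1, IPA 2 or IPA 3 left out, 4, 20, 4 or 10 of the 62 sums passed. The share of all transcripts passing fell in these runs too, to 1.93, 4.53, 1.64 and 3.18%. The share of all genes in these runs is not given here. Among genes with every transcript listed 18 of 26 sums passed, and among the others 16 of 36. The groups did not overlap in 51 sums, as in 34.8% of all genes. The sums of 11 genes overlapped, and all 11 belonged to genes with unlisted transcripts. In 9 genes the listed transcripts held under 10% of the gene's reads in control. One of these was GW2, named in rice for its control of grain width, with 1 listed transcript of 24. That transcript was at 0.483, 0.827 and 0.755 in control and 0.287, 0.246 and 0.371 in IPA, and it held 6.39 and 3.11% of the gene's reads. The GW2 gene sum was 12.3, 11.3 and 9.56 in control and 8.53, 9.50 and 10.97 in IPA, groups that overlapped (log2 difference -0.18 ± 0.19). RNF181 was alike, with 1 listed transcript of 21 and a gene sum that overlapped between the groups (log2 difference -0.21 ± 0.25). BIG BROTHER, which limits organ size in Arabidopsis, had 2 listed transcripts of 17 with 3.70% of its reads in control, and its gene sum nevertheless passed limma (62.6, 64.0 and 75.4 in control, 43.7, 42.6 and 46.9 in IPA, log2 difference -0.59 ± 0.15).

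**Figure D4:**
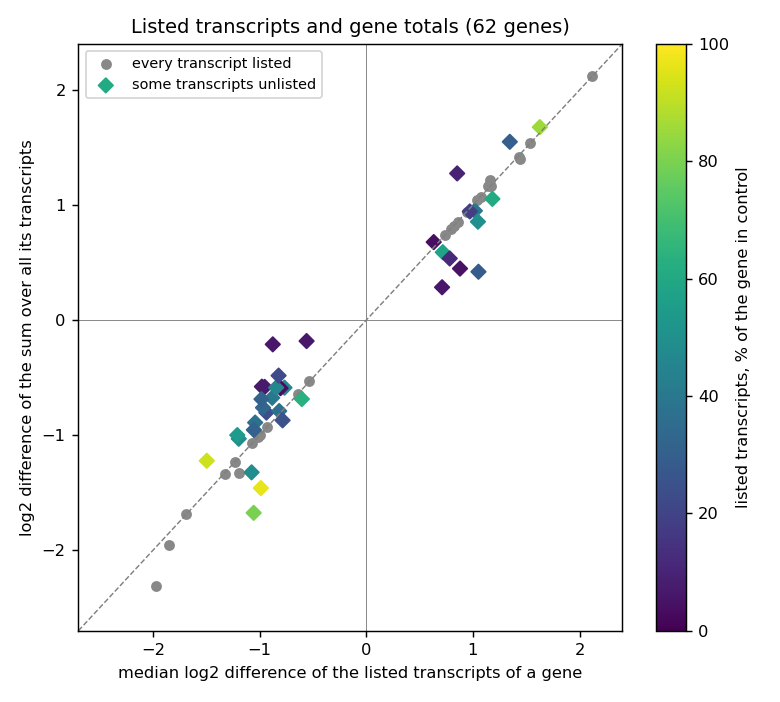
For each of the 62 genes, the median log2 difference of its listed transcripts (x axis) against the log2 difference of the sum over all its transcripts (y axis), with the line of equality dashed. Grey circles are the 26 genes with every transcript listed, and diamonds are the 36 genes with unlisted transcripts, coloured by the share of reads that the listed ones hold in control. All sums have the sign of their listed transcripts, which for the 26 genes was fixed in advance, and the sums of GW2 (-0.18) and RNF181 (-0.21) lie nearest to 0.

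The 217 unlisted transcripts of these genes were not used by the rule, though they come from the same libraries and can share reads with the listed ones. Of the 209 that could be tested 23 passed limma (8.37% of all transcripts did), 11 higher and 12 lower. Their log2 difference had the sign of the listed transcripts of their gene in 179 cases (85.6%). The same share over other genes was not computed, so nothing is concluded from it. Transcripts of 1 gene count here as separate cases, 25 of them coming from the XBAT34 gene.

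The samples of a group did not lie evenly. Among the 89 lower members control 1 held the highest control value in 70 (78.7%) and control 3 the lowest in 69 (77.5%). Over all 2507 lower transcripts of the list these shares were alike, at 75.0 and 76.5%. With 1 transcript per gene, that with the most reads, the counts were 20 and 21 of 35. Over the 89 lower members the median log2 deviation from the control mean was 0.46, 0.02 and -0.48 in the controls by sample number. In the treated samples it was -1.04, -1.10 and -1.08. Over all 2507 lower transcripts of the list the same medians were 0.40, -0.03 and -0.39 in control and -1.08, -1.10 and -1.13 in IPA. Among the 38 higher members IPA 3 held the highest treated value in 32 (84.2%, against 61.3% of the 2586 higher transcripts of the list), and the medians were 0.78, 0.94 and 1.32 in IPA 1, 2 and 3. The median SD of log2 values of the lower members was 0.48 in control and 0.18 in IPA. For the higher members it was 0.25 and 0.29.

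**Figure D5:**
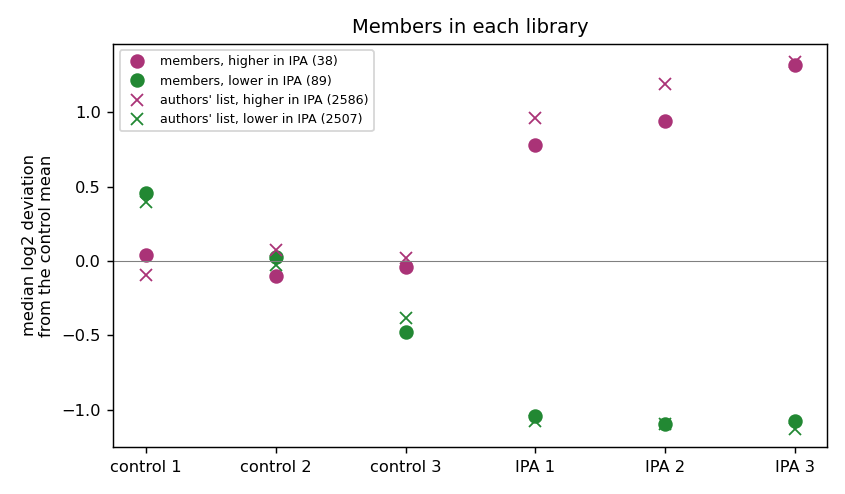
Median log2 deviation of each library from the mean of the controls, over the 38 higher and 89 lower members (circles) and over the 2586 higher and 2507 lower transcripts of the authors' list (crosses). For the lower members the controls run from 0.46 in control 1 to -0.48 in control 3, while the treated samples lie between -1.10 and -1.04; for the higher members IPA 3 is highest, at 1.32.

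The thresholds that chose the members were met closely by some. In the authors' deposited table the smallest absolute log2 fold changes among members were 1.00 for ubiquitin-conjugating enzyme E2 16 and 1.01 for AFR, and the largest FDR was 0.0490, for a GW2 and an RGLG2 transcript. The RGLG2 transcript, TRINITY_DN1511_c1_g1_i27, was at 1.39, 1.11 and 0.801 in control and 0.517, 0.184 and 0.643 in IPA. Just outside, by edgeR's likelihood-ratio test recomputed on the recovered reads, were an unlisted RNF181 transcript with a log2 fold change of -0.996 (15.5, 9.54 and 6.82 in control, 5.97, 4.73 and 5.29 in IPA) and an unlisted RNF167 transcript with -0.991. Of the 209 unlisted transcripts of member genes tested, 31 passed the FDR in that test with a change under 2-fold. Another 9 passed both thresholds, among them TRINITY_DN5731_c0_g1_i8 of the MAX2 homolog, with a log2 fold change of 2.01. That recomputed test placed 7554 transcripts past both thresholds, of which 5088 were in the list, and every listed transcript carries a description. Transcripts past the thresholds with no description could therefore not be members.

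Other genes of the pathway could be counted only within the same list. No description named an activating enzyme, SKP1, the COP9 signalosome, polyubiquitin or NEDD8. All 3 listed transcripts with proteasome in the description were lower and passed limma, where 8.37% of all transcripts passed. The list holds only changed transcripts, so this count does not describe the proteasome as a whole. One of the 3 was described as Proteasome-activating nucleotidase (log2 difference -0.99 ± 0.24). Proteasome subunit beta type-7-B, of the proteolytic core, was at 54.8, 39.98 and 35.6 in control and 21.7, 22.2 and 19.8 in IPA (log2 difference -0.99 ± 0.20), and beta type-4 at 28.97, 18.1 and 20.7 in control and 11.3, 11.9 and 9.74 in IPA (log2 difference -0.98 ± 0.21). Enzymes that remove ubiquitin gave 16 transcripts of 5 genes, 13 lower and 3 higher, of which 10 and 3 passed limma. Among them OVARIAN TUMOR DOMAIN-containing deubiquitinating enzyme 2 was at 12.6, 14.2 and 5.08 in control and 1.67, 2.05 and 1.11 in IPA (log2 difference -2.31 ± 0.35). Ubiquitin carboxyl-terminal hydrolase 21 was higher, at 10.7, 12.2 and 13.3 in control and 27.2, 28.97 and 25.1 in IPA (log2 difference 1.14 ± 0.17). Desumoylating isopeptidase 1, which removes the ubiquitin-like protein SUMO, was higher in all 4 of its listed transcripts, which came from 1 gene. Of these, TRINITY_DN1920_c0_g1_i11 was at 6.70, 10.4 and 10.9 in control and 29.6, 49.2 and 58.4 in IPA (log2 difference 2.21 ± 0.27). Both transcripts described as homolog C of cell division control protein 48, a protein that extracts marked proteins, did not have overlapping groups, 1 being higher (log2 difference 0.79 ± 0.20) and 1 lower (log2 difference -0.67 ± 0.23), the latter without passing limma. The F-box protein EIN3-binding F-box protein 2, which limits ethylene signalling in Arabidopsis and was left out by the wording rule, gave 3 listed transcripts of 2 genes with positive differences, of which 2 passed limma, TRINITY_DN2611_c0_g1_i3 being at 10.4, 14.4 and 12.1 in control and 21.7, 24.1 and 28.8 in IPA (log2 difference 0.99 ± 0.19). The transcript of the other gene, TRINITY_DN18662_c0_g2_i1, was at 0.362, 0.127 and 0.0457 in control and 0.230, 1.43 and 0.890 in IPA, where the groups overlapped, and did not pass.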

How the data were processed

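The authors deposited a table of normalised read counts per transcript, a per-library scaled signal, and a list of changed transcripts. Per the file headers the list gives, for IPA against control, log2 fold changes and mean log2 CPM values. The authors deposited with these a score from the likelihood-ratio test and its p-value, raw and as FDR. Tool names in the submitters' processing notes are edgeR, featureCounts, BWA, Trimmomatic and FastQC, with neither versions nor roles. Libraries were stranded and made from mRNA, per the labels' protocols. Every value was a whole multiple of what 1 read was worth (100% within 0.01 reads), so whole reads were recovered, and both tables held the same reads in 30558 of 30558 values. Columns of other samples numbered 0.

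Low transcripts were removed with filterByExpr (edgeR 4.0.16; minimum count 10, minimum total 15), which left 78722, and log2(value + 0.5) was fitted with limma (3.58.1, trend and robust, R 4.3.3), IPA against control, with Benjamini-Hochberg adjustment. The pseudocount understates changes of low transcripts. Sums over the transcripts of a gene were fitted the same way. Tested on simulated data, the limma step missed most 2-fold changes and found most 4-fold and 8-fold ones. Run on whole reads, the quasi-likelihood test of edgeR called 6393 transcripts and DESeq2 (1.42.0) 10358.

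The members, classes, pathway lists and the rule for names were chosen with earlier results of these data known. The rule took, in each class, up to 3 of the largest rises and falls with a mean of at least 1 normalised read and groups that did not overlap, the transcript with the most reads, genes with 3 or more members and members nearest the thresholds, 30 transcripts in all. Alternatives were other pseudocounts, filters, scalings and tests, a replicate block and leaving out each sample. No sequence or genome position was used here.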

Additional observations from a re-analysis of the deposited data

How the results depend on the processing

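No member tested in an alternative run changed the sign of its log2 difference there. Selection on these same samples for at least a 2-fold change made a change of sign unlikely beforehand. With a minimum count of 30, 100 of the 127 members were tested. Over all transcripts 6587 passed limma; the count was 11817 with library totals, 11216 with edgeR's likelihood-ratio test (added after seeing the data) and 10358 with DESeq2, and 1293 to 10421 when a sample was left out. Of the members 80 passed limma; 127 passed edgeR's likelihood-ratio test, the kind of test that chose them, and 17 to 102 passed when a sample was left out. Of the gene sums 34 passed, and 4 to 39 did when a sample was left out. Deviations of same-numbered samples from their group means correlated at -0.09, 0.08 and -0.13. The highest correlations of each control with a differently numbered treated sample were 0.13, -0.02 and 0.12. With 3 samples per group these values cannot decide whether same-numbered samples were paired, and the labels give only the number. With the replicate block 4377 transcripts, 53 members and 21 gene sums passed. Class medians of log2 differences over transcripts kept their sign under these settings, but that of F-box proteins was 0.42 over gene sums against -0.92 over transcripts. With a pseudocount of 2 they were -0.48 over all members, -0.50 for E2 enzymes, -0.51 for RING and other E3 ligases, -0.62 for F-box, 0.59 for U-box and 0.80 for BTB/POZ transcripts. With a pseudocount of 0.1 they were -1.15, -1.15 and -1.24 over all members, E2 enzymes and RING and other E3 ligases. With edgeR's quasi-likelihood or likelihood-ratio test and with DESeq2 they were -1.26, -1.26 and -1.29 over all members, -1.34, -1.34 and -1.37 for E2 enzymes, -1.42, -1.42 and -1.45 for RING and other E3 ligases and 1.36, 1.36 and 1.34 for BTB/POZ transcripts, which library totals moved to 1.34. These scales carry no or another pseudocount. The cause was not tested elsewhere. RING and other E3 ligases stood between -1.11 and -0.72 when a sample was left out. For the 30 named transcripts over the alternative runs, 59 values lost the call made in the main limma fit, 23 gained a call and 396 did neither. Of the gained calls, 6 were of DESeq2 and 8 of edgeR's likelihood-ratio test. Letting in the excluded terms gave 130 transcripts.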
